A study of Mus musculus with 18 samples.

Results

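Regulatory T (Treg) cells of the lung were compared with Treg cells of the liver, the pair of solid non-lymphoid organs among the 6 sites sampled in the series. The comparison used the 6 libraries labelled lung or liver, 3 per organ, out of 18, and tested 14615 of the 55487 genes listed. Both groups were wild-type mice given no treatment, the cells were freshly prepared, and poly(A) RNA was sequenced with a directional library kit. The remaining 12 libraries, 3 each from spleen, lymph node, bone marrow and peripheral blood, serve here as reference levels. The labels give no strain, sex, age, sorting gate or number of animals per library. As nothing states that the 3 libraries of an organ came from separate animals, p-values measure the spread between these libraries, which may be technical.

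Treg cells are CD4 T cells marked by the transcription factor Foxp3 that restrain other immune cells. In non-lymphoid organs many of them carry an effector phenotype, with the IL-33 receptor chain Il1rl1, the growth factor Areg and costimulatory receptors of the TNF receptor family. Their state is set by antigen receptor signals, by IL-2 acting through STAT5, by inflammatory cytokines, and by adenosine and other ligands that raise cyclic AMP.

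Levels are in TPM, a measure of transcript abundance corrected for length that sums to the same total in every library, so each value is a share of a library's RNA. Differences are lung minus liver on the log2(TPM + 1) scale, given ± SE with 3 libraries per organ, and understate the change of genes with low TPM. A gene was called higher or lower in lung at a Benjamini-Hochberg adjusted p under 0.05 in limma, over all genes tested. Values of single libraries are listed in the order of replicates 1, 2 and 3.

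The genes that define the label were expressed in every library of both organs. Foxp3 stood at 222, 237 and 232 TPM in the lung libraries and 165, 148 and 134 TPM in the liver libraries, a difference of 0.63 ± 0.11, adjusted p = 0.00897. Ctla4, an inhibitory receptor that Treg cells express constitutively, stood at 1554, 1460.4 and 1443 TPM in the lung libraries and 987, 1125 and 1082 TPM in the liver libraries (0.48 ± 0.07, adjusted p = 0.00342). For both genes the lung libraries were all above the liver libraries, but neither call was kept by a moderated fit without variance trend and robust settings, where the adjusted p was 0.0754 for Foxp3 and 0.125 for Ctla4. Il2ra, the high-affinity IL-2 receptor chain CD25, overlapped between the organs at 72.5, 83.9 and 72.3 TPM in the lung libraries and 68.0, 95.9 and 88.99 TPM in the liver libraries (-0.13 ± 0.17, adjusted p = 0.627). Cd4 overlapped likewise, at 247, 324 and 276 TPM in lung and 332, 378 and 315 TPM in liver (-0.28 ± 0.12, adjusted p = 0.188).

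Depth differed between the organs. From the steps between low TPM values, a single read on a 1 kb transcript added 0.224 to 0.244 TPM in lung and 0.35 to 0.415 TPM in liver, which made the lung libraries 1.64 times as deep. Genes above 0 numbered 15219 to 15606 per lung library and 14314 to 14408 per liver library. Replicates of abundant genes (100 TPM or more) had a median coefficient of variation of 8.0% in lung and 10.5% in liver. No pair of tables held identical values.

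Markers of other cell types were present and differed between the organs. Summed TPM of 9 alveolar macrophage markers was 756 to 825 in the lung libraries and 28.4 to 47.8 in the liver libraries, and Ear1, Krt79, Marco and Siglecf were at 0 in all liver libraries. In lung, 12 monocyte and macrophage markers summed to 997 to 1092 TPM against 48.1 to 104 TPM in liver. Lung also held more of the dendritic cell markers (919 to 1016 against 415 to 469 TPM, 10 genes, Siglech at 0 in liver) and of the lung epithelial markers (502 to 564 against 203 to 215 TPM, 14 genes, of which 10, all surfactant genes among them, were at 0 in liver). Most of the dendritic cell sum came from the MHC class II genes Cd74, H2-Ab1 and H2-Eb1. Their means were 581, 171 and 164 TPM in lung and 292, 64.8 and 78.2 TPM in liver. Flt3, Cd209a and Clec9a averaged under 1 TPM in both organs. Neutrophil markers summed to 637 to 799 TPM in lung and 174 to 361 TPM in liver. In the opposite direction, 7 erythroid genes summed to 10932 to 11969 TPM in liver and 1426 to 1540.0 TPM in lung. Summed over 14 genes, hepatocyte markers came to 111 to 191 TPM in lung and 36.0 to 39.4 TPM in liver, with 7 of them at 0 in all lung libraries and 4 in all liver libraries. Trf and Hp, which other cells also express, made up most of the sum in lung (means of 134.9 and 19.7 TPM in lung and 16.4 and 2.16 TPM in liver), whereas Alb, the albumin gene, had means of 0.60 TPM in lung and 5.39 TPM in liver. Over the 7 hepatocyte markers tested, 2 higher and 1 lower in lung, the median difference was -0.82. For each of these lists the organs did not overlap, and the exact two-sided permutation p was 0.1, the smallest that 3 against 3 libraries can give. In bulk RNA, fewer cells of a type and less RNA per cell cannot be told apart.

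**Figure D1:**
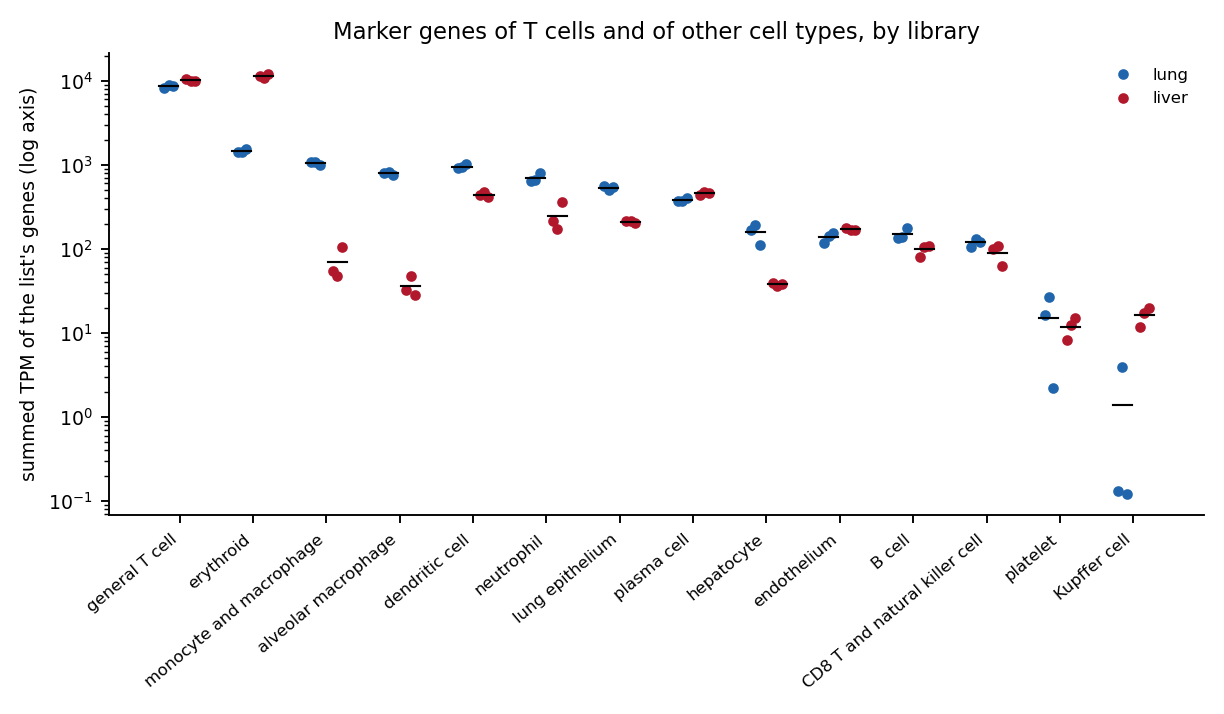
Summed TPM of the genes of each marker list (vertical log axis) in every lung (blue) and liver (red) library, 1 point per library and a bar at the group mean. Erythroid genes sit between 10932 and 11969 TPM in liver, and alveolar macrophage genes between 756 and 825 TPM in lung.

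The 20 general T cell genes summed to 8284 to 8921 TPM in lung and 9911 to 10376 TPM in liver. Scaling every library to these genes moved the median difference of all genes by 0.24. This alternative scale is given below for some of the genes and lists where it turns a direction or a call.

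Of the genes tested, 1049 were higher in lung (7.18%) and 928 were lower in lung (6.35%). Among them, 675 higher genes (4.62%) and 567 lower genes (3.88%) differed by at least 1 on the log2 scale. The 3 lung libraries lay entirely above the 3 liver libraries for 17.1% of genes tested and entirely below for 17% of them. With 1 lung library left out, 571 to 595 genes were higher and 491 to 518 lower, and without liver replicate 3 the lower genes numbered 590. Scaled to T cell genes, 1820 were higher and 576 lower, so that 76.0% of calls were higher in lung in place of 53.1%.

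**Figure D2:**
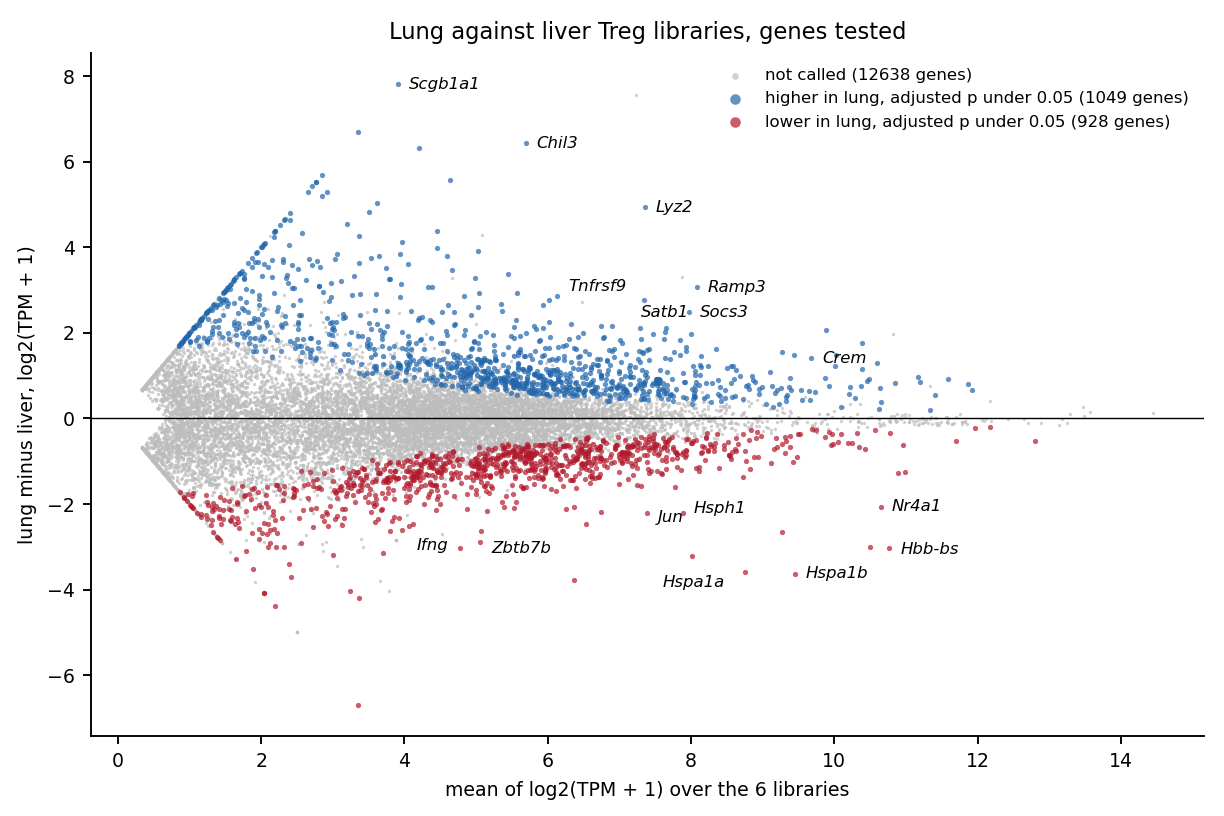
Lung minus liver difference (vertical axis, log2(TPM + 1)) against the mean of log2(TPM + 1) over the 6 libraries (horizontal axis), 1 point per gene tested. Blue points mark the 1049 genes higher in lung, red points the 928 genes lower in lung and grey points the rest. Ramp3, Tnfrsf9 and Socs3 stand apart among abundant genes higher in lung, Hspa1a and Hspa1b among those lower.

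The other 4 sites show on which side a difference lies. For 629 of the 1049 higher genes (59.96%) only the lung libraries lay outside the other libraries, above all 15. For 117 (11.2%) only the liver libraries did, below all others, and for 18 (1.72%) both organs did. For 522 of the 928 lower genes (56.2%) only the lung libraries lay outside, below all others. For 155 (16.7%) only the liver libraries did, above all others, and for 15 (1.62%) both organs did. Over all genes tested, and whether or not the other organ also lay outside, lung was above all others for 7.12% and below for 7.49%. Liver was above all others for 2.35% and below for 2.82%, counted in the same way. The sites share the lung and liver libraries with the comparison, so these counts are a description.

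**Figure D3:**
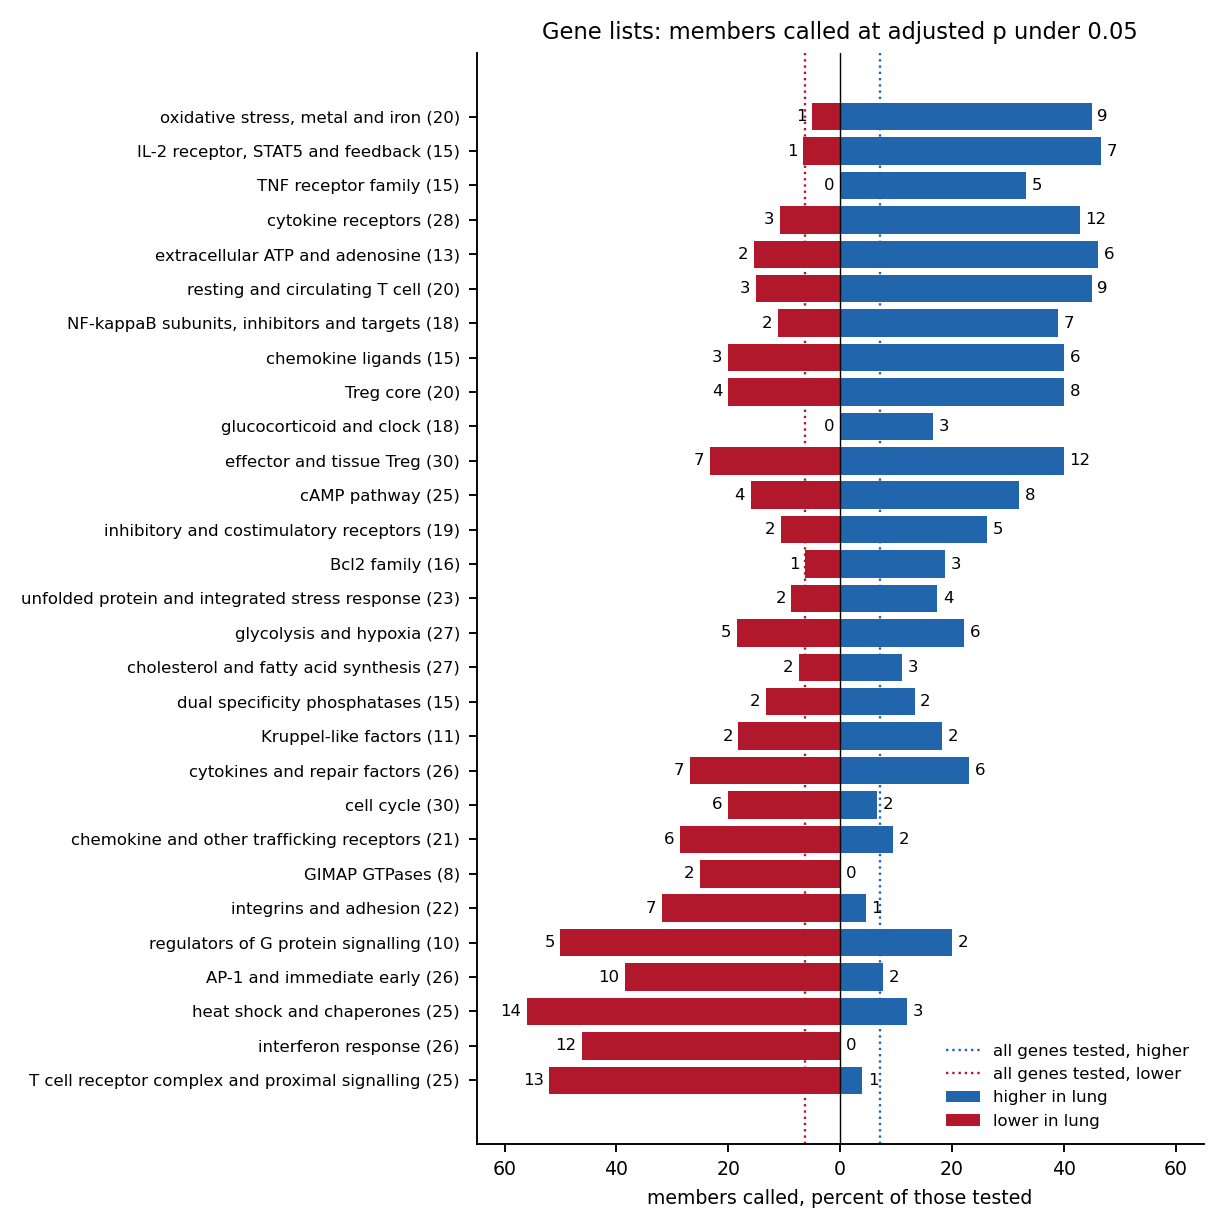
Members of each gene list called higher (blue, to the right) or lower (red, to the left) in lung, as percent of the members tested (number in parentheses), with the number called at each bar. Dotted lines mark the share over all genes tested, 7.18% higher and 6.35% lower. That share includes genes of few TPM, which were called less often: with a filter at 5 TPM, 1054 of 10643 genes were higher and 966 lower. Heat shock, interferon response and T cell receptor lists extend to the left, and the IL-2 receptor and cytokine receptor lists to the right.

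The size of these counts depends on how the spread is estimated. Without variance trend and robust settings, the heat shock list gave 7 lower and 1 higher, the immediate early list 5 lower, the T cell receptor list 4 lower, the Treg core list 1 lower and the effector list 5 higher and 2 lower. The NF-kappaB list then gave 4 higher, the list of ATP and adenosine genes 3 higher and the glycolysis list 2 lower. With the spread taken from all 18 libraries, 21 interferon response genes were lower and 2 higher, and 20 T cell receptor genes, 14 immediate early genes and 13 integrin and adhesion genes were lower.

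Heat shock genes were lower in lung, and the inducible Hsp70 pair headed the ranking of genes lower in lung. Heat shock proteins are chaperones that hold and refold damaged proteins, and many of their genes are switched on by heat shock factor, which binds repeats of the letters GAA and TTC. Of 25 chaperone genes, 14 were lower and 3 higher in lung, with a median difference of -0.68 against -0.02 over all genes tested. The promoters of 3 genes lower in lung are shown because they carry such repeats, with matches to GAANNTTC or TTCNNGAA in capitals (RefSeq, build GRCm38.p6, 250 bases before to 50 after the start, all on the minus strand). Hspa1a is read from chr17:34972107-34972406, Hspa1b from chr17:34959189-34959488 and Hsph1 from chr5:149636287-149636586, 1 of 2 starts of that gene.
Hspa1a: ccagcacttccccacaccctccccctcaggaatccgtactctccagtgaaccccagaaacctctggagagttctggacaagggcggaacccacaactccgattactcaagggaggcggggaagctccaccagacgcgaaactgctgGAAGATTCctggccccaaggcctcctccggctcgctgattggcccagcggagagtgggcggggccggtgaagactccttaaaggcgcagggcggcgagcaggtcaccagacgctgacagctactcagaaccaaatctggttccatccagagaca
Hspa1b: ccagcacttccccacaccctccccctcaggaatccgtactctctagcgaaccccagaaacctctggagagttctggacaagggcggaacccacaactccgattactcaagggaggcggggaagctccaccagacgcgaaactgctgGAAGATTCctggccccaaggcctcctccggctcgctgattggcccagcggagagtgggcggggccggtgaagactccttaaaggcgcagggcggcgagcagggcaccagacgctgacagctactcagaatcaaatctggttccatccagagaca
Hsph1: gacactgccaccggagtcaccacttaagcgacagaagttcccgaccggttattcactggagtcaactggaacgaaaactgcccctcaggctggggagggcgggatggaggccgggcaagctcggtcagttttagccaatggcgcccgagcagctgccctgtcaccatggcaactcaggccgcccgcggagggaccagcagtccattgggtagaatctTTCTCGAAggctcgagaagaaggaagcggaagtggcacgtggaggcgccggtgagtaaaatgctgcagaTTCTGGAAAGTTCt
The Hspa1a and Hspa1b promoters were identical at 296 of 300 positions and held 1 match each, beginning 104 bases before the start. Searched on both strands, where each motif reads the same, at least 1 of these overlapping motifs occurred in 12 of 21 chaperone genes with a promoter in the table (57.1%) and in 14.1% of all 9894 genes tested that had one. Of the chaperone genes lower in lung, GAANNTTC was in the promoters of 7 of 11 and TTCNNGAA in 3 of 11. At least 1 of the motifs was in 63.6% of these and in 2 of the 3 chaperone genes higher in lung (66.7%). Over all called genes with a promoter it was 16.2% of those lower and 16.1% of those higher, so the motifs did not follow the direction.

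Each Hsp70 gene of that pair separated the organs completely. Hspa1b (chr17:34956436-34959238, GRCm38) stood at 202, 206 and 187 TPM in the lung libraries and 2223, 2445 and 2743 TPM in the liver libraries, a 12.4-fold higher mean in liver (-3.63 ± 0.09, adjusted p = 1.66e-06). Hspa1a (chr17:34969190-34972156) stood at 114, 118 and 138 TPM in the lung libraries and 1397, 1449 and 1640.3 TPM in the liver libraries (-3.59 ± 0.10, adjusted p = 2.52e-06). These near-identical copies share reads, so how their sum splits between them is uncertain. In both genes the liver libraries were above all 15 others. Bone marrow came next for Hspa1b, at a mean of 315 TPM, and spleen, lymph node and blood were at 39.2, 10.8 and 8.81 TPM.

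Other chaperones moved in the same direction by smaller amounts. The Hsp110 chaperone Hsph1 stood at 115, 113 and 101 TPM in the lung libraries and 532, 505 and 488 TPM in the liver libraries (-2.20 ± 0.09, adjusted p = 1.54e-05). Dnajb1, the Hsp40 partner of inducible Hsp70, had 77.4, 94.4 and 91.2 TPM in lung and 269.9, 242 and 265 TPM in liver (-1.55 ± 0.12, adjusted p = 0.000214). The constitutive Hsp70 Hspa8 reached 3174, 3160.0 and 3108 TPM in liver and 1250.4, 1333 and 1373 TPM in lung (-1.25 ± 0.05, adjusted p = 1.38e-05), with lung below and liver above every other site. The 3 members higher in lung were Dnajb6, an Hsp40 that suppresses aggregation, at 311, 274 and 290.0 TPM in lung and 152, 151 and 157 TPM in liver (0.92 ± 0.09, adjusted p = 0.000755), together with Hspa4 and Bag3, all chosen after their values were seen. Hspa4 and Bag3 had differences of 0.84 and 0.77. Hspa4 was not called in the fit without variance trend (adjusted p = 0.0519), and Bag3 lost its call when any library other than liver replicate 2 was left out (adjusted p up to 0.118). Scaled to T cell genes, 7 chaperone genes were lower and 3 higher. The erythroid gene sum was also higher in liver, at 10932 to 11969 TPM, and its part in these differences was not tested. Bone marrow, with a mean erythroid sum of 6467 TPM, had 315 TPM of Hspa1b and 108 TPM of Hsph1, and lymph node, with 74.5 TPM, had 10.8 and 134 TPM.

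**Figure D4:**
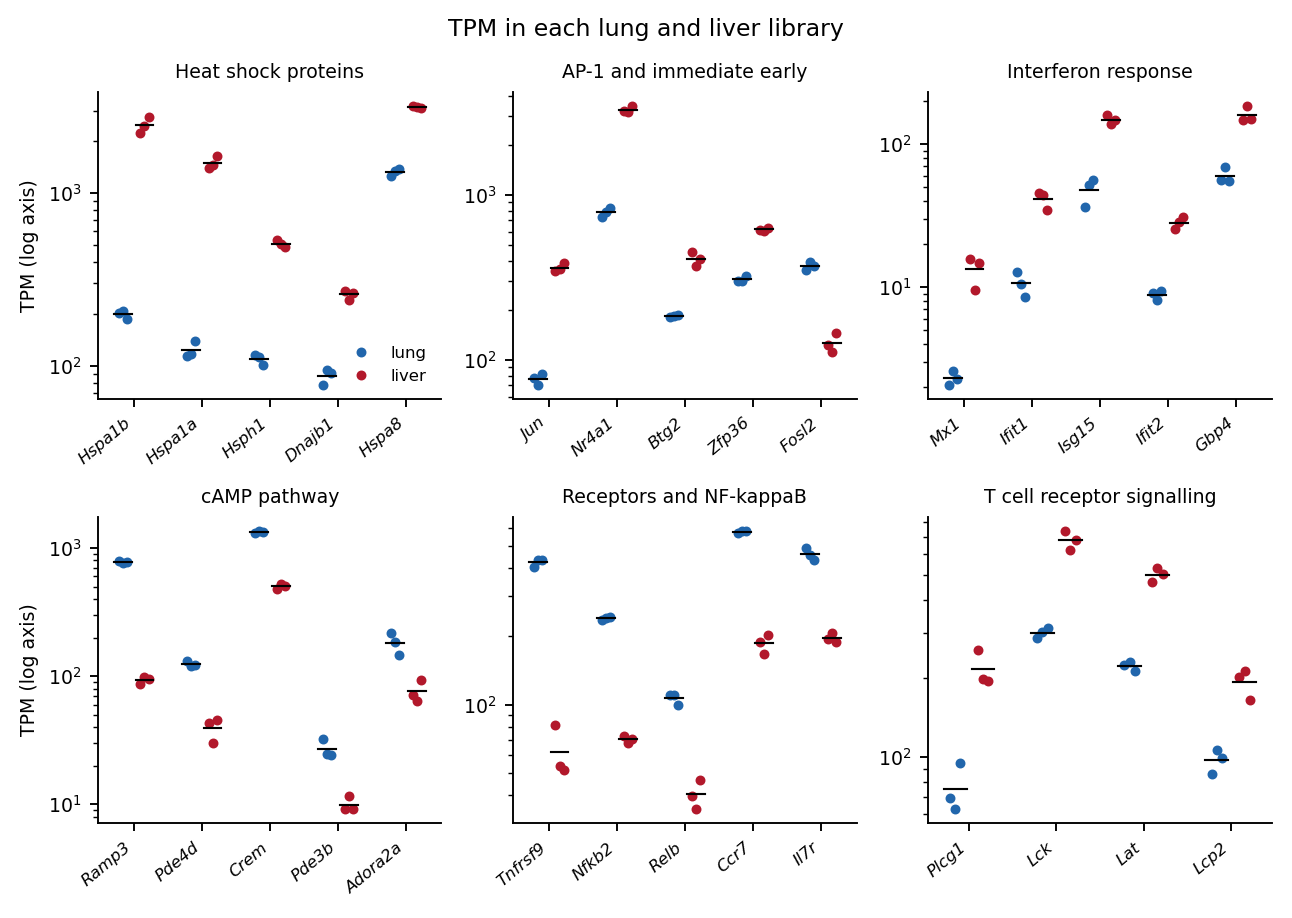
TPM of selected genes (vertical log axis) in each lung (blue) and liver (red) library, 1 point per library and a bar at the group mean, in 6 panels by gene group. In every gene drawn the lung and liver points do not overlap.

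Immediate early genes, which lymphocytes induce within a short time of stimulation or stress, were lower in lung more often than higher. Of 26 AP-1 and immediate early genes, 10 were lower and 2 higher, with a median of -0.34 that came to -0.07 when scaled to T cell genes, where 8 were lower and 7 higher. Jun (chr4:95049034-95052222), a subunit of the AP-1 factor, stood at 77.7, 70.5 and 82.4 TPM in the lung libraries and 344, 356 and 385 TPM in the liver libraries (-2.22 ± 0.11, adjusted p = 2.42e-05). Nr4a1 (chr15:101254269-101274795), an orphan nuclear receptor that reports antigen receptor signals, stood at 731, 793 and 832 TPM in the lung libraries and 3227, 3198 and 3444 TPM in the liver libraries, 4.19-fold higher in liver (-2.07 ± 0.06, adjusted p = 3.04e-06). For Nr4a1 liver exceeded every other site, whereas for Jun bone marrow had a mean of 354 TPM. The mRNA-destabilising protein gene Zfp36 had 303, 299 and 325 TPM in lung and 616, 604 and 633 TPM in liver (-1.0 ± 0.07, adjusted p = 0.000193). Btg2, an antiproliferative gene, was 2.21-fold higher in liver (-1.14 ± 0.10, adjusted p = 0.00036).

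The family did not move as one. Fosl2, another AP-1 subunit, was higher in lung, at 351, 391 and 369 TPM in the lung libraries and 123, 111 and 146 TPM in the liver libraries (1.55 ± 0.12, adjusted p = 0.000228), above all other sites. Fos and Fosb, chosen after their values were seen, did not pass the test. Fos had 472, 473 and 513 TPM in lung and 429, 321 and 356 TPM in liver (adjusted p = 0.054), and Fosb 108, 118 and 123 TPM and 85.2, 99.4 and 87.9 TPM (adjusted p = 0.111). In bone marrow Fos reached 2198 TPM.

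Feedback regulators split as well. Among dual specificity phosphatases, which remove phosphates from MAP kinases, Dusp1 (505, 497 and 559.7 TPM in lung and 963, 964 and 978 TPM in liver; -0.90 ± 0.07, adjusted p = 0.000219) and Dusp2 (141, 129 and 129 TPM in lung and 297, 304 and 308 TPM in liver; -1.19 ± 0.09, adjusted p = 0.000219) were lower in lung. Dusp10 was higher in lung, at 333, 313 and 327 TPM in lung and 127, 113 and 124 TPM in liver (1.41 ± 0.10, adjusted p = 0.000119), and outside these organs no site exceeded a mean of 18.3 TPM. Regulators of G protein signalling shorten signals from chemokine and other receptors, and 5 of 10 were lower in lung, a count of 3 without any 1 liver library or without lung replicate 2. The 2 that were higher became 1 without liver replicate 3 or any 1 lung library. Rgs16 stood at 39.3, 42.04 and 36.7 TPM in the lung libraries and 179.7, 158 and 169.5 TPM in the liver libraries (-2.08 ± 0.13, adjusted p = 8.17e-05), with liver above all other sites. Rgs3 and Rgs14 were lower in lung by -1.61 and -1.63, with lung below all other sites. Rgs2 ran the other way, at 1068, 865 and 853 TPM in lung and 565, 421 and 473 TPM in liver (0.94 ± 0.13, adjusted p = 0.00334). Klf6, a zinc finger factor of the immediate early class, was also lower in lung (-0.89 ± 0.10, adjusted p = 0.00109).

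Genes of cyclic AMP signalling were more often higher than lower in lung. Cyclic AMP is made in response to adenosine, prostaglandins and neuropeptides, acts through protein kinase A and CREB, and is broken down by phosphodiesterases, some of which it induces as feedback. Of 25 genes of the pathway, 8 were higher and 4 lower, with a median of 0.23. Without lung replicate 2 or 3, 1 was lower, and without any 1 liver library 2 were. For all 8 higher genes the lung libraries were above all 15 others. For Adcy7, 1 of the 4 lower genes, they were below all 15 others.

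Ramp3 (chr11:6658521-6677475) led the pathway and had the largest difference toward lung among genes with at least 50 TPM in both organs, a ranking added after the values were seen. It encodes a membrane protein that pairs with the calcitonin receptor-like receptor to form adrenomedullin receptors, and stood at 794, 769.7 and 784 TPM in the lung libraries and 86.96, 97.7 and 94.2 TPM in the liver libraries (3.06 ± 0.09, adjusted p = 2.52e-06). The lung mean was 8.42-fold the liver mean, and spleen, lymph node, bone marrow and blood had 4.09, 2.76, 10.4 and 2.62 TPM. Both organs therefore exceeded the other 4 sites. Its partner receptor gene Calcrl, chosen after its values were seen, overlapped between the organs at 9.75, 12.4 and 16.5 TPM in lung and 11.3, 18.4 and 15.03 TPM in liver (difference -0.20 ± 0.30, 0.04 when scaled to T cell genes, adjusted p = 0.684).

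Receptor, effector and feedback genes were among the other members of the pathway higher in lung. The adenosine receptor gene Adora2a stood at 216, 184 and 146 TPM in the lung libraries and 71.1, 63.5 and 94.1 TPM in the liver libraries (1.25 ± 0.20, adjusted p = 0.00586). Crem, a transcription factor gene that cyclic AMP induces, stood at 1300.5, 1365 and 1345 TPM in the lung libraries and 476, 529 and 504 TPM in the liver libraries (1.41 ± 0.07, adjusted p = 1.9e-05). The remaining sites had means of 11.8 to 38.2 TPM of Crem, with blood lowest and bone marrow highest. The phosphodiesterase genes Pde4d (132, 121 and 123 TPM in lung and 43.2, 29.9 and 45.6 TPM in liver; 1.66 ± 0.18, adjusted p = 0.00118) and Pde3b (32.4, 24.9 and 24.3 TPM in lung and 9.16, 11.6 and 9.12 TPM in liver; 1.36 ± 0.24, adjusted p = 0.00993) were higher in lung as well. The monocyte and macrophage sum (997 to 1092 TPM) and the alveolar macrophage sum (756 to 825 TPM) were also higher in lung. In blood these sums had means of 8464 and 375 TPM, with Ramp3 at 2.62 TPM and Adora2a at 18.9 TPM. The part of these cells in the differences was not tested. The full cyclic AMP response element TGACGTCA was in 5.2% of the 805 promoters of genes higher in lung, in 1.3% of the 678 of genes lower in lung and in 3.6% of all 9894, searched on both strands. It was in 1 of the 16 promoters of cyclic AMP pathway genes in the table and in 0 of the 4 of those higher in lung.

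**Figure D5:**
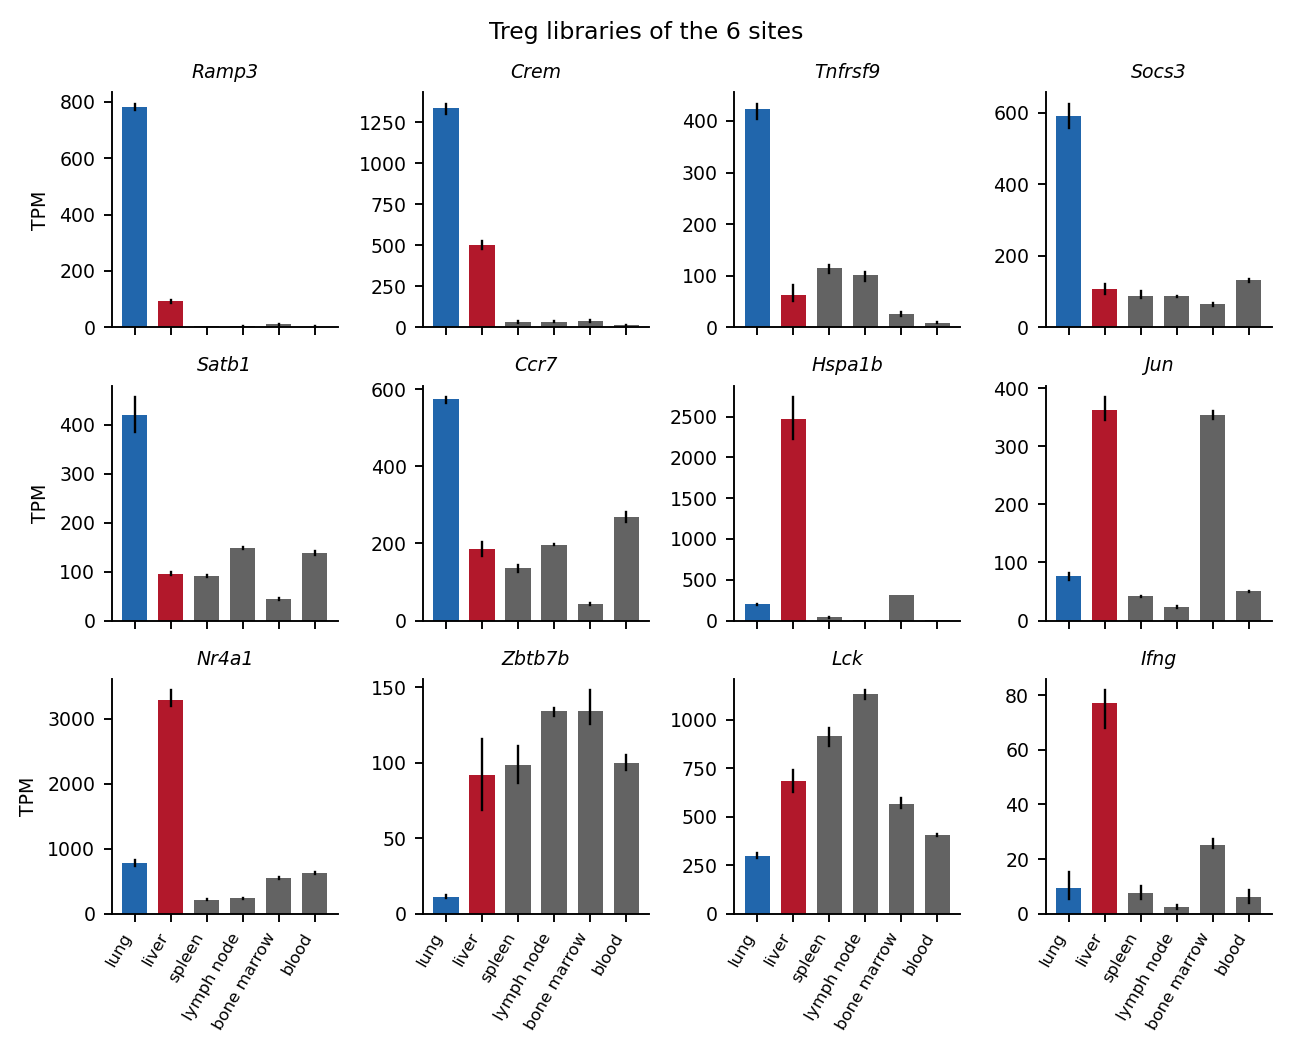
Mean TPM (vertical axis, from 0) of 12 genes in the Treg libraries of the 6 sites, with vertical lines from the lowest to the highest of the 3 libraries. Ramp3 and Crem are near 0 outside lung and liver on these axes, Hspa1b and Nr4a1 peak in liver, and Zbtb7b and Lck are lowest in lung.

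Some genes for the handling of extracellular ATP and adenosine differed in mRNA level too. The ectoenzyme Nt5e, which makes adenosine from AMP, is counted among the Treg core genes below, and Entpd1, which acts before it, overlapped at 19.1, 19.2 and 36.3 TPM in lung and 13.2, 17.8 and 16.7 TPM in liver (adjusted p = 0.268). Art2b, an ADP-ribosyltransferase of the T cell surface that uses extracellular NAD, was lower in lung, at 20.9, 27.6 and 23.8 TPM in the lung libraries and 74.8, 97.8 and 79.7 TPM in the liver libraries (-1.76 ± 0.18, adjusted p = 0.000912). Of 13 genes of this list 6 were higher and 2 lower, and the 6 became 3 without liver replicate 1 or any 1 lung library.

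Several costimulatory receptors of the TNF receptor family were higher in lung. These receptors bind ligands on antigen-presenting cells and signal to NF-kappaB. Of 15 family members, 5 were higher and none lower. Tnfrsf9 (chr4:150914562-150946102), which encodes 4-1BB, stood at 404, 434 and 430.3 TPM in the lung libraries and 81.1, 53.8 and 51.5 TPM in the liver libraries, 6.8-fold higher in lung (2.78 ± 0.17, adjusted p = 8.8e-05). Tnfrsf18, which encodes GITR, had 564, 588 and 576 TPM in lung and 256, 212 and 276 TPM in liver (1.22 ± 0.11, adjusted p = 0.000419). Tnfrsf4, or OX40, had 627, 646 and 683 TPM and 344, 316 and 325 TPM (0.99 ± 0.07, adjusted p = 0.000211). The lung libraries exceeded all other libraries for these genes and for Tnfrsf1b (0.86 ± 0.10, adjusted p = 0.00173). Spleen and lymph node were next for Tnfrsf9, with means of 114 and 101 TPM.

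NF-kappaB genes were more often higher than lower in lung. Of 18 subunits, inhibitors and targets, 7 were higher and 2 lower in lung, with a median of 0.42, and scaled to T cell genes 13 were higher. Nfkb2, the precursor of the p52 subunit, stood at 236, 239 and 244 TPM in the lung libraries and 73.1, 68.1 and 70.4 TPM in the liver libraries (1.75 ± 0.10, adjusted p = 6.57e-05). Its partner gene Relb had 110.2, 110.0 and 100.2 TPM in lung and 39.6, 34.7 and 46.8 TPM in liver (1.39 ± 0.16, adjusted p = 0.00126), and the survival gene Birc3 was 1.81-fold higher (0.86 ± 0.12, adjusted p = 0.00339). The 2 lower members were Nfkbid, an atypical nuclear inhibitor (55.7, 56.7 and 36.7 TPM in lung and 127, 115 and 161 TPM in liver; -1.43 ± 0.21, adjusted p = 0.00453), and Cflar, which blocks caspase activation at death receptors (46.1, 52.6 and 45.3 TPM in lung and 98.97, 82.8 and 135 TPM in liver; -1.09 ± 0.20, adjusted p = 0.0103). In all 7 higher genes the lung libraries lay above every other site. The dendritic cell marker sum, in these organs mostly MHC class II genes, was 919 to 1016 TPM in lung and 415 to 469 TPM in liver. It moved in the same direction. In blood the sum had a mean of 2987 TPM, with 53.8 TPM of Nfkb2, 26.8 TPM of Relb and 8.98 TPM of Tnfrsf9. The part of dendritic cells in these differences was not tested.

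Of 16 Bcl2 family genes, 3 were higher in lung (18.75%) and 1 lower (6.25%), against 7.18% and 6.35% of all genes tested. The median difference of the 16 ran the other way, at -0.48 against -0.02 over all genes tested. Bcl2l11, which encodes the pro-apoptotic protein Bim, stood at 181, 163 and 160.2 TPM in the lung libraries and 18.5, 28.1 and 25.9 TPM in the liver libraries (2.77 ± 0.18, adjusted p = 0.000113), 6.96-fold higher in lung, and no other site exceeded a mean of 31.9 TPM. The anti-apoptotic gene Mcl1 was higher by 0.52 ± 0.08 (adjusted p = 0.00457), a call lost in the fit without variance trend (adjusted p = 0.0954). Bcl2a1a was higher (3.60 ± 0.40, adjusted p = 0.00123) and its near-identical copy Bcl2a1b lower, copies whose separate values are uncertain because they share reads. The Bcl2a1b call ended when any 1 library other than lung replicate 1 was left out (adjusted p up to 0.111). It was also lost scaled to T cell genes and in the fit without variance trend (adjusted p up to 0.212).

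Treg core genes were mostly higher in lung or not different by the test. Of 20 such genes, 8 were higher, 4 lower and 8 not called, with a median of 0.03. Lrrc32, the surface anchor of latent TGF-beta known as GARP, stood at 272, 245 and 287 TPM in the lung libraries and 88.9, 91.1 and 86.1 TPM in the liver libraries (1.58 ± 0.11, adjusted p = 0.000119). The IL-2 receptor beta chain gene Il2rb had 423, 413 and 409.9 TPM in lung and 243, 229 and 234 TPM in liver (0.82 ± 0.08, adjusted p = 0.000566), and Nt5e 171, 168 and 164 TPM and 94.04, 96.9 and 95.3 TPM (0.81 ± 0.10, adjusted p = 0.00214). In the opposite direction, Nrp1, a semaphorin receptor of Treg cells, stood at 41.1, 51.6 and 52.1 TPM in the lung libraries and 141, 122 and 134 TPM in the liver libraries (-1.45 ± 0.15, adjusted p = 0.000832). Ikzf2, which encodes Helios and was chosen after its values were seen, had 128, 139.9 and 115 TPM in lung and 198, 229 and 189 TPM in liver (-0.68 ± 0.12, adjusted p = 0.0109). The Ikzf2 call was lost scaled to T cell genes and in the fit without variance trend (adjusted p up to 0.0719). Without liver replicate 1 or 3, 2 core genes were lower in place of 4, and scaled to T cell genes 1 was.

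Effector and tissue Treg genes were higher in lung more often than lower, 12 of 30 against 7, with a median of 0.28. In all 12 the lung libraries were above all 15 other libraries. The cytotoxic granule gene Gzmb stood at 155, 144 and 124 TPM in the lung libraries and 57.97, 43.3 and 53.6 TPM in the liver libraries (1.44 ± 0.16, adjusted p = 0.0012), and the inhibitory receptor gene Pdcd1 at 276, 309 and 301 TPM in the lung libraries and 137, 134 and 148 TPM in the liver libraries (1.08 ± 0.10, adjusted p = 0.000445). The tissue Treg genes Il1rl1 and Areg, chosen after their values were seen, were high in both organs. Il1rl1 had 290.2, 255 and 254 TPM in lung and 152, 179.7 and 136 TPM in liver (0.78 ± 0.13, adjusted p = 0.00686), against means of 12.5, 17.4 and 25.5 TPM in blood, spleen and lymph node. Areg had 139, 175 and 158 TPM and 86.8, 103 and 85.2 TPM (0.77 ± 0.14, adjusted p = 0.00993), and at most 12.3 TPM on average at the other 4 sites. Gata3, a transcription factor of these cells chosen in the same way, was 1.59-fold higher in lung (0.67 ± 0.10, adjusted p = 0.00576). In the fit without variance trend Il1rl1, Areg and Gata3 had adjusted p values of 0.0562, 0.0562 and 0.056 and were not called, and 5 genes of the list were higher.

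Several effector genes were lower in lung. Penk, the enkephalin precursor that some Treg cells make, stood at 29.1, 18.2 and 22.3 TPM in the lung libraries and 96.2, 84.9 and 94.03 TPM in the liver libraries (-1.96 ± 0.20, adjusted p = 0.000823). Ebi3, a subunit of the cytokine IL-35, had 8.79, 5.93 and 6.51 TPM in lung and 36.98, 17.1 and 23.3 TPM in liver (-1.68 ± 0.34, adjusted p = 0.0156), and was not called without liver replicate 3 or lung replicate 2 or 3 (adjusted p up to 0.0641). The 7 lower genes became 3 without liver replicate 3 or lung replicate 3 and 4 without lung replicate 2. Scaled to T cell genes, 2 were lower and 14 higher. The anti-inflammatory cytokine gene Il10 did not pass the test, with 35.96, 41.01 and 30.1 TPM in lung and 27.9, 29.7 and 25.0 TPM in liver (adjusted p = 0.276).

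Genes of resting and circulating T cells were also higher in lung, 9 of 20 against 3 lower, with a median of 0.30. Ccr7, the chemokine receptor for entry into lymph nodes, stood at 565, 581 and 578 TPM in the lung libraries and 189, 167 and 203 TPM in the liver libraries (1.63 ± 0.09, adjusted p = 6.57e-05). Il7r, the receptor for the survival cytokine IL-7, had 489.5, 456 and 433 TPM in lung and 193, 207 and 189 TPM in liver (1.22 ± 0.09, adjusted p = 0.000174). S1pr1, which guides exit from lymphoid tissue, had 525, 492 and 487 TPM and 264, 271 and 316 TPM (0.82 ± 0.09, adjusted p = 0.00135). For these 3 genes and for the chromatin organiser Satb1 (chr17:51736187-51833290), at 457, 384 and 417 TPM in lung and 99.1, 93.3 and 93.2 TPM in liver (2.12 ± 0.10, adjusted p = 2.35e-05), the lung libraries exceeded those of every other site, spleen, lymph node and blood included. Foxp1, a repressor that maintains quiescence, was 2.63-fold higher (1.37 ± 0.16, adjusted p = 0.00169). Tcf7 and Klf2 ran the other way. Tcf7, which encodes TCF-1, had 142, 161 and 154 TPM in lung and 296, 290.2 and 293 TPM in liver (-0.94 ± 0.09, adjusted p = 0.000677), and Klf2, an activator of S1pr1, had 328, 343 and 357 TPM and 595, 611 and 724 TPM (-0.90 ± 0.09, adjusted p = 0.000912). The 9 higher genes became 6 without lung replicate 1 or 2.

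Homing receptors and integrins were lower in lung where they differed, apart from Ccr7, S1pr1 and Itgav. Of 22 integrin and adhesion genes, 7 were lower and 1 higher, with a median of -0.37. Itga4, the alpha 4 integrin chain, stood at 66.2, 63.6 and 55.6 TPM in the lung libraries and 166, 167 and 156 TPM in the liver libraries (-1.39 ± 0.12, adjusted p = 0.000432), and Itgb1, its beta 1 partner, at 371, 366 and 335 TPM in the lung libraries and 628, 707 and 673 TPM in the liver libraries (-0.90 ± 0.08, adjusted p = 0.000444). Cd226, an adhesion and costimulatory receptor, was 5.81-fold higher in liver, at 34.4, 43.5 and 37.2 TPM in lung and 295, 203 and 171 TPM in liver (-2.48 ± 0.21, adjusted p = 0.000352), with lung below and liver above all other sites. Itgav, a chain of integrins that activate latent TGF-beta, was higher in lung (105, 119.7 and 107 TPM in lung and 45.5, 64.3 and 57.1 TPM in liver; 0.99 ± 0.16, adjusted p = 0.00702). The chemokine receptor Cxcr6, whose ligand liver sinusoidal cells display, had 48.4, 63.9 and 57.4 TPM in lung and 109.7, 129 and 107 TPM in liver (-1.02 ± 0.16, adjusted p = 0.00523). Gpr15, a homing receptor best known in the large intestine, had 20.1, 18.02 and 19.8 TPM and 50.2, 50.8 and 47.7 TPM (-1.32 ± 0.17, adjusted p = 0.00239). Liver exceeded every other site for both receptors. Without lung replicate 1 or 2, 4 integrin and adhesion genes were lower, and scaled to T cell genes 4 were. Of 21 trafficking receptors, 6 were lower and 2 higher. The 6 became 2 without lung replicate 2, 3 without lung replicate 3 and 4 without any other library. Their median of -0.17 became 0.09 scaled to T cell genes.

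Genes of the IL-2 receptor and STAT5 were more often higher than lower in lung. Of 15 genes 7 were higher and 1 lower, with a median of 0.20, and with 1 library left out at a time none was lower except without liver replicate 2. Stat5a (243, 224 and 224 TPM in lung and 91.3, 77.2 and 73.2 TPM in liver; 1.51 ± 0.12, adjusted p = 0.000275) and Stat5b (252, 257 and 305 TPM in lung and 95.0, 117 and 105 TPM in liver; 1.35 ± 0.12, adjusted p = 0.000515) are the transcription factors that IL-2 activates. Socs3 (chr11:117966079-117970047), a feedback inhibitor of STAT3-activating cytokines, stood at 557, 592 and 626 TPM in the lung libraries and 94.2, 102 and 122 TPM in the liver libraries, 5.58-fold higher in lung (2.48 ± 0.12, adjusted p = 2.02e-05), with 64.3 to 132 TPM at the other 4 sites. Il2ra, as given above, was not called. Without lung replicate 3, 5 genes of the list were higher.

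Cytokine receptors showed the same direction, with 12 of 28 higher, 3 lower and a median of 0.36. Ifngr1, a chain of the interferon gamma receptor, was the most abundant, at 1732, 1756 and 1721 TPM in the lung libraries and 619, 648 and 594 TPM in the liver libraries (1.49 ± 0.06, adjusted p = 1.18e-05). Il4ra, shared by the IL-4 and IL-13 receptors, had 282, 288 and 296 TPM in lung and 92.8, 95.1 and 97.9 TPM in liver (1.59 ± 0.09, adjusted p = 6.85e-05). In both genes lung was above all other sites. Csf2rb, a receptor chain of IL-3, IL-5 and GM-CSF that myeloid cells express, shares reads with its copy Csf2rb2 and had 20.02, 24.1 and 22.4 TPM in lung and 0.46, 1.57 and 0.4 TPM in liver (3.73 ± 0.38, adjusted p = 0.000786) and a mean of 78.1 TPM in blood. The 3 lower receptors became 0 to 2 with any 1 library left out.

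Cytokine genes differed in both directions. Ifng, which encodes interferon gamma, stood at 5.54, 15.5 and 7.27 TPM in the lung libraries and 81.7, 81.8 and 68.02 TPM in the liver libraries, 8.19-fold higher in liver (-3.02 ± 0.34, adjusted p = 0.00127). Tnf, chosen after its values were seen, had 25.8, 21.9 and 18.4 TPM in lung and 74.8, 78.6 and 83.7 TPM in liver (-1.81 ± 0.18, adjusted p = 0.000726), and Lta, or lymphotoxin alpha, 4.9, 3.57 and 3.76 TPM and 23.8, 17.01 and 15.8 TPM (-1.96 ± 0.30, adjusted p = 0.00555). Liver was above every other site for Ifng and Tnf. Conversely Il1b, a cytokine of myeloid cells, had 55.6, 59.7 and 65.1 TPM in lung and 7.3, 2.59 and 11.6 TPM in liver (3.08 ± 0.43, adjusted p = 0.00349), and a mean of 1576 TPM in blood. Il6 was listed at 13.9, 12.9 and 13.8 TPM in lung and at 0 in all liver libraries. Of 26 cytokine and repair factor genes 6 were higher and 7 lower.

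Among 15 chemokine ligands, 6 were higher in lung and 3 lower. Ccl6, a macrophage chemokine, stood at 167, 179.8 and 168 TPM in the lung libraries and 3.69, 1.73 and 2.62 TPM in the liver libraries (5.58 ± 0.24, adjusted p = 1.59e-05). Cxcl1, a neutrophil chemoattractant, had 34.1, 28.8 and 44.5 TPM in lung and 5.18, 3.0 and 0 TPM in liver (3.64 ± 0.64, adjusted p = 0.00909), not called without lung replicate 3 (adjusted p = 0.0544). Ccl5, chosen after its values were seen and made by effector T cells, was higher in liver, at 186, 155 and 194 TPM in lung and 352, 392 and 460.2 TPM in liver (-1.16 ± 0.13, adjusted p = 0.00134). The 3 lower genes became 1 without liver replicate 1 or 2 or lung replicate 2 or 3. The alveolar macrophage and monocyte marker sums, 756 to 825 and 997 to 1092 TPM in lung, were higher along with these myeloid cytokines and chemokines, and their part was not tested.

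Interferon response genes were lower in lung, 12 of 26 with none higher and a median of -0.83. These genes encode antiviral proteins, and many are switched on by type I interferon through the factor ISGF3, which binds spaced TTTC repeats. The promoters of Isg15 and Ifit1 are shown because both were lower in lung and held several such letters, with matches to TTCNNTTTC on either strand in capitals (RefSeq, GRCm38.p6, motif added after the values were seen). Isg15 is read from chr4:156200769-156201068 on the minus strand and Ifit1 from chr19:34640639-34640938 on the plus strand.
Isg15: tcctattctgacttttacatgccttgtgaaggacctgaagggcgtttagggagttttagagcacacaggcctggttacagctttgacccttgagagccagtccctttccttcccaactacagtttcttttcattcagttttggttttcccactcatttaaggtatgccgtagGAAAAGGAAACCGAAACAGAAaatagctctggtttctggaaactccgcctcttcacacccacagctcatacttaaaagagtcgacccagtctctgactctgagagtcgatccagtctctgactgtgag
Ifit1: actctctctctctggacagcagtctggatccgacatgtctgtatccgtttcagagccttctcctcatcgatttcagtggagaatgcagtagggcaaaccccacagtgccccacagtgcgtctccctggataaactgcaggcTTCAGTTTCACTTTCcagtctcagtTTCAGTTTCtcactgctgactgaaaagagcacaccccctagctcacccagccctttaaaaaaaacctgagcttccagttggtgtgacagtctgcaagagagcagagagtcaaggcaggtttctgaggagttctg
Isg15 held 3 overlapping matches beginning between 78 and 66 bases before the start, and Ifit1 held 3 beginning between 109 and 84 bases before it. The motif was in 11 of 19 interferon response genes with a promoter in the table (57.9%) and in 8.9% of all genes tested that had one, and among those lower in lung in 5 of 8.

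Isg15, a ubiquitin-like modifier, stood at 36.1, 51.4 and 55.6 TPM in the lung libraries and 159, 137 and 147 TPM in the liver libraries (-1.63 ± 0.18, adjusted p = 0.00123). Ifit1, which binds viral RNA, had 12.8, 10.6 and 8.46 TPM in lung and 45.6, 44.01 and 34.5 TPM in liver (-1.88 ± 0.24, adjusted p = 0.00229). For these genes liver was above all 15 other libraries. Mx1, an antiviral GTPase, had 2.07, 2.59 and 2.27 TPM and 15.7, 9.53 and 14.6 TPM (-2.08 ± 0.34, adjusted p = 0.00709), Ifit2 9.09, 8.07 and 9.43 TPM and 25.4, 28.5 and 30.9 TPM (-1.57 ± 0.23, adjusted p = 0.00396), and the guanylate-binding protein gene Gbp4 56.1, 68.5 and 55.3 TPM and 146, 183 and 149 TPM (-1.39 ± 0.15, adjusted p = 0.00104). For Mx1, Ifit2 and Gbp4 it was lung that lay below all other sites, and blood had means of 22.5, 35.8 and 93.8 TPM. Scaled to T cell genes 9 genes were lower and 1 higher. Without liver replicate 3 or lung replicate 2, 8 were lower.

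Genes of the T cell receptor complex and its first signalling steps were lower in lung, 13 of 25 against 1 higher, with a median of -0.32. Lck, the kinase that starts the cascade, stood at 286, 301 and 313 TPM in the lung libraries and 739, 624 and 682 TPM in the liver libraries (-1.18 ± 0.09, adjusted p = 0.000206), and the scaffold gene Lat at 225, 231 and 214 TPM in the lung libraries and 469, 533 and 503 TPM in the liver libraries (-1.16 ± 0.09, adjusted p = 0.000193). Plcg1, the phospholipase recruited to Lat, had 69.2, 62.7 and 94.5 TPM in lung and 257, 199 and 195 TPM in liver (-1.52 ± 0.18, adjusted p = 0.0018), and the adaptor gene Lcp2 85.5, 106 and 98.8 TPM and 203, 214 and 166 TPM (-0.99 ± 0.14, adjusted p = 0.00372). For Lck, Lat and Lcp2 lung was below every other site. Cd3e, a chain of the receptor complex, had 409, 429 and 458 TPM in lung and 592, 517 and 517 TPM in liver (-0.33 ± 0.09, adjusted p = 0.0441). The Cd3e call ended when any 1 library was left out (adjusted p up to 0.141). It was also lost without a filter, scaled to T cell genes, with the replicate block and without variance trend (adjusted p up to 0.636). Of the list, 8 genes were lower when liver replicate 1 or 3 or lung replicate 2 was left out, 6 without lung replicate 1 and 7 without lung replicate 3. The sum of general T cell genes was also lower in lung, as given above. Scaled to those genes, some of which belong to this list, 4 genes were lower and the median was -0.06.

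Metabolic genes differed in sets of a few members. Of 27 glycolysis and hypoxia genes 6 were higher and 5 lower, and scaled to T cell genes 9 and 1. Hif1a, the oxygen-regulated factor, stood at 469.9, 463 and 465 TPM in the lung libraries and 145, 183 and 183 TPM in the liver libraries (1.46 ± 0.11, adjusted p = 0.000211), above all other sites in lung. Slc16a3, a lactate exporter, had 76.4, 75.9 and 75.3 TPM in lung and 7.25, 11.8 and 10.4 TPM in liver (2.85 ± 0.22, adjusted p = 0.000219). Mxi1, a Myc antagonist, was 3.16-fold higher in lung (1.65 ± 0.18, adjusted p = 0.00123). Slc2a3, a glucose transporter, was lower in lung, at 23.2, 17.1 and 16.6 TPM in lung and 66.2, 60.1 and 69.1 TPM in liver (-1.74 ± 0.19, adjusted p = 0.00123). With any 1 library left out, 1 to 3 genes of the list were lower, and without lung replicate 1 or 2, 4 were higher.

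In lipid metabolism, genes for single enzyme steps were higher in lung, Dgat1 and Mvk among them. Dgat1 (chr15:76502015-76511953), the last enzyme of triglyceride synthesis, stood at 1876, 1928 and 1987 TPM in the lung libraries and 488, 468 and 419 TPM in the liver libraries, 4.21-fold higher in lung (2.07 ± 0.07, adjusted p = 5.84e-06), and none of the other 4 sites had a mean above 157 TPM. Mvk, mevalonate kinase of the cholesterol pathway, had 126, 139 and 114 TPM in lung and 6.12, 4.67 and 13.6 TPM in liver (3.92 ± 0.34, adjusted p = 0.000376). Of 27 genes of cholesterol and fatty acid synthesis, a list that holds Mvk but not Dgat1, 3 were higher (11.1%) and 2 lower (7.41%). These shares were near the 7.18% and 6.35% of all genes tested. The 3 became 1 without lung replicate 1 and 2 without lung replicate 2 or 3, and the 2 became 0 or 1 with any 1 library left out. Their median of -0.16 was 0.08 scaled to T cell genes.

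Iron and oxidative stress genes were higher in lung, 9 of 20 against 1 lower, with a median of 0.57. Fth1, the ferritin heavy chain, stood at 2402, 2389 and 2529 TPM in the lung libraries and 1099.8, 883 and 989 TPM in the liver libraries (1.30 ± 0.08, adjusted p = 8.55e-05). Hmox1, which breaks down haem, had 25.6, 23.7 and 26.4 TPM in lung and 3.84, 4.99 and 5.45 TPM in liver (2.20 ± 0.26, adjusted p = 0.00163), and blood had 38.5 TPM. Macrophages also express both genes, macrophage markers were higher in lung as given above, and their part was not tested. The 9 became 5 without lung replicate 1 or 2 and 6 without liver replicate 1 or lung replicate 3, and the 1 lower became 2 without liver replicate 2 or 3.

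Among glucocorticoid and clock genes 3 of 18 were higher in lung and none lower. The glucocorticoid receptor gene Nr3c1 stood at 271, 231 and 262 TPM in the lung libraries and 129, 129 and 143 TPM in the liver libraries (0.93 ± 0.11, adjusted p = 0.00138). The kinase gene Sgk1, a target of that receptor, had 148, 178 and 137 TPM in lung and 67.5, 71.9 and 52.05 TPM in liver (1.27 ± 0.17, adjusted p = 0.00276), and the circadian repressor gene Nfil3 146, 159 and 150.2 TPM and 71.02, 68.2 and 86.9 TPM (1.01 ± 0.13, adjusted p = 0.00274). In all 3 genes lung was above all other sites. Of 8 GIMAP GTPases, survival proteins of lymphocytes, Gimap7 (-0.96 ± 0.10, adjusted p = 0.00101) and Gimap9 (-0.64 ± 0.08, adjusted p = 0.00256) were lower in lung. Gimap9 was not called in the fit without variance trend (adjusted p = 0.0581).

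Proliferation genes were at low levels in both organs. Of 30 cell cycle genes 6 were lower and 2 higher in lung, with a median of -0.84. Rrm2, a subunit of ribonucleotide reductase, had 11.9, 15.1 and 16.6 TPM in lung and 51.8, 35.3 and 35.7 TPM in liver (-1.42 ± 0.24, adjusted p = 0.00819). Mki67, the proliferation marker, had 11.1, 11.7 and 17.5 TPM and 33.7, 31.5 and 32.8 TPM (-1.25 ± 0.24, adjusted p = 0.0132), a call lost without lung replicate 1 or 2 (adjusted p up to 0.0537). Bone marrow exceeded both organs, with 87.1 TPM of Rrm2 and 80.95 TPM of Mki67. The 6 lower genes became 2 without liver replicate 3 or lung replicate 1 or 2, 3 without liver replicate 2 or lung replicate 3, and 4 without liver replicate 1, and the 2 higher ones 0 or 1. The unfolded protein list gave 4 higher (17.4%) and 2 lower (8.7%) of 23, against 7.18% and 6.35% of all genes tested. These counts became at most 1 higher and 0 to 2 lower with any 1 library left out.

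Ranked by size alone, the 15 genes most increased in lung outside the marker lists included several genes known from macrophages. Spp1, or osteopontin, had 56.6, 44.1 and 36.3 TPM in lung and was listed at 0 in all liver libraries, as were Clec4n, Ctsk, Cbr2, Car4, Gls2 and Gdf15. Thbs1, the matrix protein thrombospondin, stood at 68.7, 71.3 and 68.03 TPM in the lung libraries and 0.06, 0.22 and 6.73 TPM in the liver libraries (5.03 ± 0.70, adjusted p = 0.00347), and Plaur, the urokinase receptor, at 108, 77.7 and 116 TPM in the lung libraries and 2.69, 3.64 and 5.58 TPM in the liver libraries (4.37 ± 0.29, adjusted p = 0.00011). Ccl6 is given above, and the remaining 5 were Lpl, Plet1, Alox5ap, Slc11a1 and Ctsf. Of the marker genes themselves, chosen after their values were seen, Chil3 had 498, 504 and 441 TPM in lung and 7.6, 2.87 and 4.18 TPM in liver (6.43 ± 0.28, adjusted p = 1.59e-05). The club cell secretoglobin Scgb1a1 had 264, 197 and 215 TPM in lung and 0 in all liver libraries, and was at a mean of 0.44 TPM in spleen and 0 in lymph node, bone marrow and blood. Clec4g, a lectin of liver sinusoidal endothelium, had 15.2, 20.6 and 24.5 TPM in liver and 0 in all lung libraries. Haemoglobin Hbb-bs, whose copies share reads, had 623, 570.1 and 643 TPM in lung and 5183, 4922 and 4822 TPM in liver (-3.02 ± 0.06, adjusted p = 6.91e-07).

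Abundant genes outside the lists also set the organs apart. Among those with at least 50 TPM in both organs, Got1, an aspartate aminotransferase, stood at 407, 393 and 399 TPM in the lung libraries and 149.9, 86.9 and 72.03 TPM in the liver libraries (2.02 ± 0.24, adjusted p = 0.00164). Epb41, a linker of membrane and cytoskeleton, had 240.4, 277 and 234 TPM in lung and 55.7, 53.3 and 56.9 TPM in liver (2.16 ± 0.12, adjusted p = 4.32e-05). Tmem64, Pja1 and Isy1 were higher in lung by 1.97, 1.90 and 1.97. In the opposite direction, Rasal3, a Ras GTPase activator of lymphocytes, stood at 115, 123 and 138 TPM in the lung libraries and 382, 401 and 367 TPM in the liver libraries (-1.61 ± 0.10, adjusted p = 8.95e-05). Gramd1a, a sterol carrier at membrane contacts, had 82.4, 84.2 and 107 TPM in lung and 285, 275 and 257 TPM in liver (-1.57 ± 0.13, adjusted p = 0.00031), and the small GTPase gene Rhob 54.8, 60.02 and 53.9 TPM and 146, 159 and 186 TPM (-1.52 ± 0.14, adjusted p = 0.000444).

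Of the 15 genes most decreased in lung, Zbtb7b (chr3:89377644-89394776) encodes ThPOK, the factor that fixes the CD4 lineage. It stood at 10.3, 11.2 and 12.2 TPM in the lung libraries and 90.8, 68.8 and 116 TPM in the liver libraries, 8.16-fold higher in liver (-2.89 ± 0.23, adjusted p = 0.000242), and the other 4 sites had means of 98.7 to 134 TPM, and the lung libraries were below all 15 others. Cd4, given above, did not differ by the test. Ahsa2, a predicted Hsp90 co-chaperone, had 11.1, 15.9 and 10.9 TPM in lung and 65.5, 94.4 and 91.0 TPM in liver (-2.63 ± 0.23, adjusted p = 0.000405), with lung below and liver above every other site. Lpar6, a lysophosphatidic acid receptor, had 4.86, 4.66 and 4.3 TPM and 29.9, 34.9 and 36.4 TPM (-2.63 ± 0.24, adjusted p = 0.000496), and the cystatin gene Cst7 3.88, 4.52 and 10.5 TPM and 36.96, 28.1 and 34.7 TPM (-2.33 ± 0.36, adjusted p = 0.00575). The remaining genes of this ranking not described above were Lrrc61, Rdm1, Gemin8, Ndufaf2, Pde6d and Amn1, all under 50 TPM in each library of both organs. Of these, all but Lrrc61 lost their call when at least 1 library was left out, with adjusted p values of up to 0.126. Several named genes overlap another annotated gene on the opposite strand, among them Jun, Ramp3, Tnfrsf9, Zbtb7b and Lpar6, and whether the counting used strand is not given in the sources used here, so their reads may include those of the partner.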

How the data were processed

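Treg cell RNA was sequenced from 6 mouse sites with 3 libraries each, and the 6 lung and liver libraries, grouped by their labelled tissue, were compared. The authors deposited 1 table of TPM values per library, for 55487 Ensembl gene IDs, and the submitters' processing notes name STAR, RSEM and mm10 without versions or roles. The annotation, filters and use of strand are not given in the sources used here. Totals were 999999.27 to 1000000.62 TPM, so a library rich in other RNA lowers every other gene. GENCODE M21 names matched 55141 IDs.

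Here TPM was transformed as log2(TPM + 1), and genes averaging 1 TPM or more in either organ were tested with limma 3.58.1 in R 4.3.3 on the 6 libraries (eBayes with trend and robust settings, no covariate, Benjamini-Hochberg adjustment). On simulated data for this comparison (13821 genes) it recovered 97% of 100 genes changed 2-fold and 100% of 100 changed 4-fold, with 8 false calls among 205. The simulation changed only genes well above the filter. It gave all genes the same spread between libraries beyond that of read counts, not the spread seen in the data. Its recovery therefore does not carry over to genes of few TPM or of larger spread. Depth, which TPM does not keep, was estimated from the value of 1 read, a value counting as whole within 0.1 of a read. Marker sums were compared with exact permutation tests.

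Named genes were the 15 largest differences per direction, among called genes of at least 20 TPM in the higher organ without overlap, leaving out numbered predicted genes, receptor segments, mitochondrial genes, replication histones, small RNAs, IDs without symbol and marker genes, and up to 5 called members of each of 29 lists. Foxp3, Il2ra, Ctla4, Cd4 and Cd3e were named in any case. Not every list member that this rule chose is reported by name here. Members and lists were chosen with earlier results of these data known. The design also provided for 17 alternatives, and 1 was added later. Promoters were searched for motifs in RefSeq sequences of 9894 tested genes.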

Additional observations from a re-analysis of the deposited data

How the results depend on the processing

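Higher and lower genes numbered 1049 and 928. Counts stayed within 1.5 times of these with a pseudocount of 0.1 (1055 and 916) or 5 (1012 and 886), without a filter (868 and 750), with a filter at 5 TPM (1054 and 966), with library weights, quantile normalization, abundant RNA classes removed, GC content corrected (1096 and 917, chosen after seeing the data) and without variance trend and robust settings (854 and 672). With the spread estimated from all 18 libraries, 2920 genes were higher and 2986 lower, sharing 1049 and 927 with the counts above. Scaled to T cell genes, 1820 were higher and 576 lower, sharing 1049 and 576. That scale uses genes of the T cell receptor list itself. With 1 library left out at a time, 571 to 819 genes were higher and 491 to 646 lower, and 552 to 571 of the higher genes without a lung library were among the 1049. Il2ra, not called, turned to 0.129 and Calcrl to 0.044 scaled to T cell genes. Of 192 called genes among the 197 tested by name, 137 kept call and direction under each alternative run for them. With the replicate number as a block, 791 genes were higher and 689 lower. Same-numbered lung and liver libraries did not deviate together (r of 0.0084, 0.0224 and 0.0059 over genes), and 2 of 3 lung libraries correlated best with their own number. The numbers were therefore not taken as pairs. The lower depth of liver limits calls among genes of few TPM, and counts of called list members under each alternative rest on lists of 8 to 30 genes.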

Other observations

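Gene families taken by name after the values were seen gave further values. Of 13 mitochondrially encoded mRNAs, 6 were higher in lung and none lower, with a median difference of 0.67. Their sum was 81662 ± 3975 TPM in lung and 64381 ± 10121 TPM in liver (SD, n = 3). mt-Nd1 and mt-Nd2, subunits of complex I, stood at 4350.5, 4318 and 4034 TPM in lung and 2005, 2492 and 2274 TPM in liver (0.91 ± 0.08, adjusted p = 0.000369) and at 3276, 3200.4 and 3126 TPM in lung and 1338, 1949 and 1705 TPM in liver (0.96 ± 0.12, adjusted p = 0.0022). The 73 nuclear genes of the respiratory chain did not share this, with 0 higher, 1 lower and a median of 0.06 (0.31 scaled to T cell genes). Of 81 cytosolic ribosomal protein genes 2 were lower and none higher, with a median of -0.07 that turned to 0.20, with 28 higher, scaled to T cell genes.

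Of 38 proteasome subunit genes 2 were higher (5.26%) and 3 lower (7.89%) in lung, near the 7.18% and 6.35% of all genes tested. The 3 lower genes, named after their values were seen, were the catalytic subunits of the immunoproteasome, which interferon induces. Psmb8 had 276, 264 and 284 TPM in lung and 458, 504 and 525 TPM in liver (-0.85 ± 0.09, adjusted p = 0.000753), Psmb9 86.4, 121 and 92.4 TPM and 191, 194 and 183 TPM (-0.93 ± 0.14, adjusted p = 0.00543), and Psmb10 131, 81.7 and 97.1 TPM and 165, 195 and 171 TPM (-0.80 ± 0.18, adjusted p = 0.0246). The Psmb10 call was lost when any 1 library other than lung replicate 1 was left out (adjusted p up to 0.0934), with the replicate block and when scaled to T cell genes (adjusted p = 0.0985).

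Cytoskeletal genes changed in both directions. Tubb2a, a beta-tubulin of which Tubb2b is a near-identical copy, stood at 184, 185 and 191 TPM in the lung libraries and 27.03, 23.4 and 24.4 TPM in the liver libraries (2.86 ± 0.13, adjusted p = 1.9e-05). Actb, or beta-actin, had 2704, 2738 and 2895 TPM in lung and 3998, 3681 and 4312 TPM in liver (-0.52 ± 0.06, adjusted p = 0.00179; not called in the fit without variance trend, adjusted p = 0.107), and Actg1, or gamma-actin, 4817, 4952 and 5026 TPM and 2998, 2754 and 2756 TPM (0.80 ± 0.05, adjusted p = 6.85e-05). Of 5 MHC class II genes 4 were higher in lung. H2-Ab1 had 175, 169 and 169 TPM in lung and 68.4, 67.95 and 58.1 TPM in liver (1.39 ± 0.12, adjusted p = 0.000376). The dendritic cell list given above holds H2-Ab1, H2-Eb1 and Cd74 itself, so its sum is not a separate measure beside these genes. The part of dendritic cells was not tested.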
